A study of Mus musculus with 10 samples.

Results

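Metallothioneins and zinc transporters are represented here by 7 genes, Mt1, Mt2, Mtf1, Slc30a1, Slc30a10, Slc39a4 and Slc39a5, of 19456 genes listed in at least 1 library of mouse intestinal tissue. They were taken by symbol from the deposited tables of all 10 libraries, and the group was chosen by the measured levels of Mt2, which changed in opposite directions with dextran sulfate sodium (DSS) in the 2 genotypes. Those values of Mt2 are therefore given as a description, with no test, and the other 6 genes were tested. All 7 genes passed the filter on low counts.

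The libraries came from flash-frozen intestine of C57BL/6 mice. They were transgenic mice that overexpress ITGB6 (TG) given 2.5% DSS by mouth (2 libraries), wild-type mice (WT) given the same DSS (2), untreated TG mice (3) and untreated WT mice (3). Oral DSS injures the gut lining and was used in the study as an intestinal fibrosis model. ITGB6 is the beta 6 subunit of an epithelial integrin. The labels used here give neither the promoter of the transgene, the number of transgenic lines, the ages of the mice nor the segment of intestine, nor whether each library is a different animal. The p-values below thus reflect the spread among these libraries, which may be technical.

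Metallothioneins are small cysteine-rich proteins that bind zinc and copper in the cytosol. Free zinc activates the transcription factor MTF1, which binds metal response elements in the promoters of Mt1, Mt2 and Slc30a1, so that metallothionein transcripts follow the zinc available to the cell; glucocorticoids also induce them. Zinc transporters form a pair of families: SLC39 (ZIP) proteins bring zinc into the cytosol, and SLC30 (ZnT) proteins carry it out of the cytosol or into organelles. In the intestine, SLC39A4 takes up dietary zinc at the luminal face, SLC39A5 lies on the basolateral face, and SLC30A1 exports zinc.

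The libraries held 15393859 to 18284704 deposited expected counts. The human ITGB6 entry read 2201 to 2453 CPM (counts scaled to library size, here with the trimmed mean of M-values method, TMM) in TG DSS libraries and 0.709 to 1.13 CPM in WT DSS libraries. In untreated tissue it read 3632 to 3913 CPM in TG and 0.117 to 0.123 CPM in WT. Summed levels of 10 epithelial markers were 18740 to 25776 CPM over all libraries, with none at 0. Xist, transcribed from the inactive X chromosome, read 307 to 739 CPM in the 4 DSS libraries and at most 0.417 CPM in the 6 untreated ones, and the Y-linked Kdm5d was not listed in any DSS library and read 26.6 to 44.2 CPM in untreated libraries. DSS and sex therefore cannot be told apart in any comparison below of DSS with untreated tissue. The same holds where such changes, or the TG and WT differences after DSS and untreated, are set against each other. The library TG untreated 1 stood apart from its group, with the leukocyte gene Ptprc at 8.94 CPM against 56.9 and 79.5 CPM in TG untreated 2 and 3. The calls among the 6 tested genes numbered the same in each comparison without it.

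Per kilobase of transcript, the metallothioneins were the most abundant of the 7 genes in untreated WT tissue. Mean deposited FPKM (fragments per kilobase scaled to library size) in untreated WT was 613 ± 17.9 for Mt1, 224 ± 9.51 for Mt2, 81.2 ± 5.01 for Slc39a5 and 76.5 ± 3.58 for Slc39a4 (SD, n = 3). The lower levels were 9.84 ± 0.516 for Slc30a1, 7.62 ± 2.24 for Slc30a10 and 4.81 ± 0.737 for Mtf1. Slc39a5 and Slc39a4 overlapped in their libraries there, as did Slc30a10 and Mtf1, while the highest Slc30a10 library, at 9.27 FPKM, lay just below the lowest Slc30a1 library, at 9.30 FPKM. In untreated TG the order was different, with mean FPKM of 182 ± 31.3 for Mt1, 157 ± 6.14 for Slc39a4, 67.2 ± 7.83 for Slc39a5 and 32.4 ± 7.15 for Mt2 (SD, n = 3). Among all genes of a library, Mt1 ranked 369th to 515th by FPKM in untreated TG and 120th to 130th in untreated WT. Mt2 ranked 2202nd to 3220th in untreated TG and 340th to 369th in untreated WT.

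**Figure D1:**
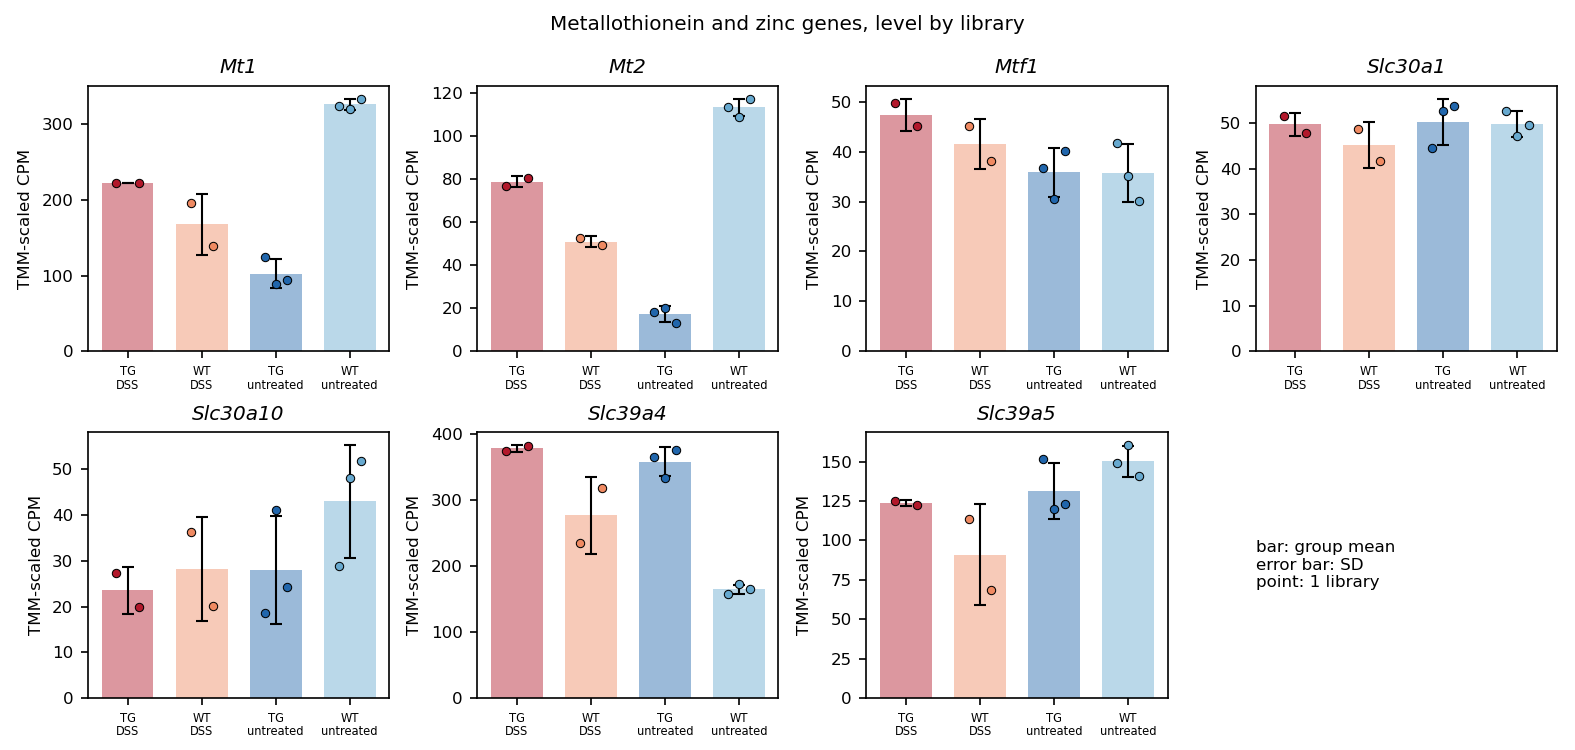
TMM-scaled CPM of the 7 genes, 1 panel a gene, with each point a library, each bar a group mean and each error bar 1 SD (n = 2 for the DSS groups and 3 for the untreated groups). Mt1 and Mt2 were lowest in untreated TG and highest in untreated WT, whereas Slc39a4 was lowest in untreated WT.

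Mt2 (gene ID 17750, chromosome 8, 94172618 to 94173567, plus strand, GRCm38) encodes metallothionein 2, and its levels chose the gene group. It read 77.1 and 80.7 CPM in TG DSS, 52.7 and 49.3 CPM in WT DSS, 18.5, 20.1 and 13.3 CPM in untreated TG, and 113, 109 and 117 CPM in untreated WT. No 2 of these groups overlapped. The fitted log2 fold change of DSS over untreated was 2.19 in TG and -1.15 in WT, and that of TG over WT was -2.71 untreated and 0.63 after DSS. Written as folds, Mt2 was 4.55-fold higher with DSS in TG, 2.22-fold lower with DSS in WT, and 6.54-fold lower in untreated TG than in untreated WT.

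Mt1 (ID 17748, chromosome 8, 94178883 to 94180327, plus strand), the other widely expressed metallothionein, begins 5315 bases downstream of Mt2. It read 223 and 223 CPM in TG DSS, 196 and 139.6 CPM in WT DSS, 125, 88.8 and 94.5 CPM in untreated TG, and 324.5, 321 and 334 CPM in untreated WT. The order of the 4 groups was that of Mt2, and again none overlapped. In untreated tissue Mt1 was 3.17-fold lower in TG than in WT (log2 fold change -1.67 ± 0.16, SE, adjusted p = 0.000971). Here and below, adjusted p-values come from edgeR's quasi-likelihood F test, adjusted by Benjamini and Hochberg's method over all 14072 genes tested. All 3 untreated TG libraries lay below all 3 untreated WT libraries, and 32% of all genes tested did not overlap in that comparison.

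With DSS, Mt1 rose in TG and fell in WT. The log2 fold change of DSS over untreated was 1.11 ± 0.17 in TG (adjusted p = 0.00467) and -0.96 ± 0.18 in WT (adjusted p = 0.00586). The difference between these changes, the genotype by DSS interaction, was itself tested and passed, at 2.07 ± 0.24 (adjusted p = 0.00545). After DSS the TG libraries lay above the WT libraries by 0.41 ± 0.19, which did not pass (adjusted p = 0.456). The call in WT was lost without WT DSS 2, where the change was smaller (-0.74, adjusted p = 0.058). That in TG just missed the threshold without TG DSS 2, at the same log2 change (1.11, adjusted p = 0.0523). The untreated call and the interaction passed in every alternative fit. Without TG untreated 1 the log2 difference of untreated TG from WT was -1.83 for Mt1 and -2.76 for Mt2, and that of DSS from untreated in TG was 1.28 for Mt1 and 2.23 for Mt2.

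**Figure D2:**
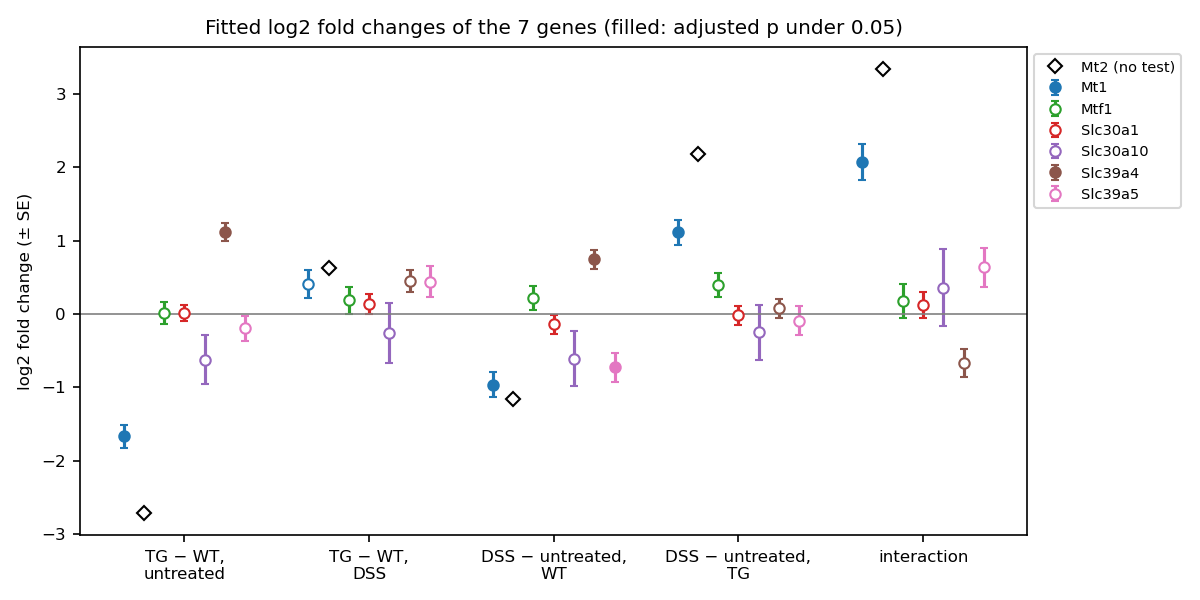
Log2 fold changes of the 7 genes from the fit to all 10 libraries, with SE bars and filled points where adjusted p was under 0.05; Mt2 is drawn as an open diamond with no bar, since it was not tested. Mt1 fell in untreated TG and took opposite signs with DSS in WT (-0.96) and TG (1.11), while Slc39a4 rose in untreated TG (1.12) and with DSS in WT (0.75).

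Leaving out Mt2, 13 of 14071 genes, or 0.0924%, were lower with DSS in WT and higher with DSS in TG, both at adjusted p under 0.05. The reverse held for 5 genes, or 0.0355%. Mt1 was 1 of the 13. The others included Car4, a carbonic anhydrase of colonocytes, Cubn, the vitamin B12 receptor cubilin, the cytochrome P450 genes Cyp4b1 and Cyp2d9, Tsku, Celf6, Ces1d, Phospho1, Pmm1, Slc46a3 and D330041H03Rik. These were named after their values were seen.

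The 2 metallothioneins did not keep a fixed proportion. Mt1 counts per Mt2 count were 2.89 and 2.76 in TG DSS, 3.72 and 2.83 in WT DSS, 6.79, 4.41 and 7.09 in untreated TG, and 2.86, 2.94 and 2.85 in untreated WT. The untreated TG libraries thus had the highest ratios of the 10, and the 3 untreated WT libraries lay close together. Mt2 made up 12.4 to 18.5% of the summed Mt1 and Mt2 CPM in untreated TG and 25.4 to 26.0% in untreated WT. Pearson's r of log2 CPM between Mt1 and Mt2 was 0.955 over the 10 libraries, as a description only, since the points share their groups. The coding sequences of the Mt1-201 and Mt2-201 transcripts, 183 bases each, were 79.2% identical in the GENCODE annotation, with no shared run longer than 20 bases. The deposited expected counts of Mt1 and Mt2 were whole numbers in all 10 libraries, such as 3798 and 1315 in TG DSS 1. Mtf1 had a fractional count there, 847.17. How any reads matching both metallothioneins were divided is not given in the sources used here.

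**Figure D3:**
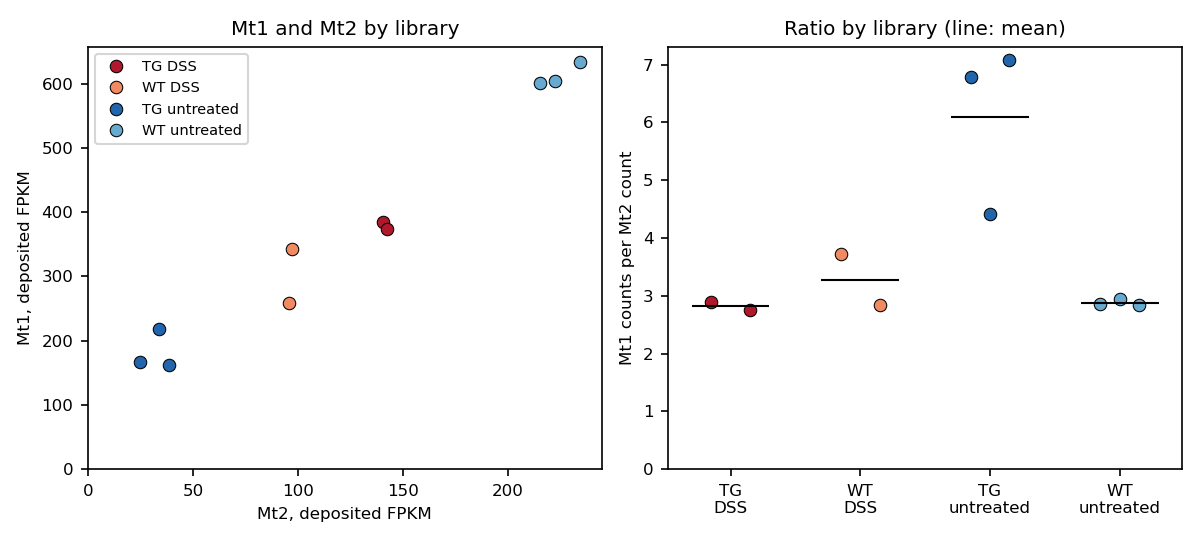
Left, deposited FPKM of Mt1 against Mt2, 1 point a library; right, Mt1 counts per Mt2 count by group, with lines at group means. The untreated TG libraries lie nearest the origin on the left and have the highest ratios on the right, 4.41 to 7.09.

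Because Mt1 and Mt2 moved together, the sequences around their start sites are shown, from the RefSeq promoter table for GRCm38.p6. Capitals mark the core of the metal response element, searched as TGCACNC and TGCGCNC on both strands, from 250 bases before the start site to 50 bases from it on. Mt1 held 3 matches, at -23, 3 and 21 counted from the start site of that table (base 1). They are given in 30-base stretches at chr8:94179056-94179085 and chr8:94179089-94179118. That start lies inside the annotated Mt1 gene, which begins at 94178883, and its use in this tissue was not tested. The Mt1 window may therefore miss promoter sequence, and its count is not set against that of Mt2. Mt2 held 4 matches, at -223, -128, -50 and 5. The 250 bases before its start are chr8:94172368-94172617, and the last match is given in a stretch at chr8:94172620-94172649. Each is written 5′ to 3′ on the plus strand, which is the strand of both genes.
Mt1 upstream: ggtcccgctgTGCACACtggcgctccaggg
Mt1 start: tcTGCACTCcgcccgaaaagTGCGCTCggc
Mt2 upstream: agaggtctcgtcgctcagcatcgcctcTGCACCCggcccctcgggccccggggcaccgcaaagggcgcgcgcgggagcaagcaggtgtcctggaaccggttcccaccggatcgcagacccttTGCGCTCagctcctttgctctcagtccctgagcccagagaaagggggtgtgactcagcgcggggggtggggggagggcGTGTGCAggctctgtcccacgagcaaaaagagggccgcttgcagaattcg
Mt2 start: tcGTGCGCAggcccaggggcgtgtgctggc

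Of the 7 genes, 6 had an entry in that table, and Slc39a4 had none. Slc30a1 held 2 matches and Slc30a10 held 3, of which 2 overlap on opposite strands. Slc39a5 has 2 entries, with 1 match and 0 matches, and Mtf1 held 0. Among 32851 promoters of the same length, 25.7% held at least 1 match, 7.11% at least 2, 1.97% at least 3 and 0.517% at least 4. A match is a description of the letters and not evidence of binding. Slc30a1, given below, carries 2 matches and did not pass in any comparison. Whether such matches bear on the levels of these genes was not tested.

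**Figure D4:**
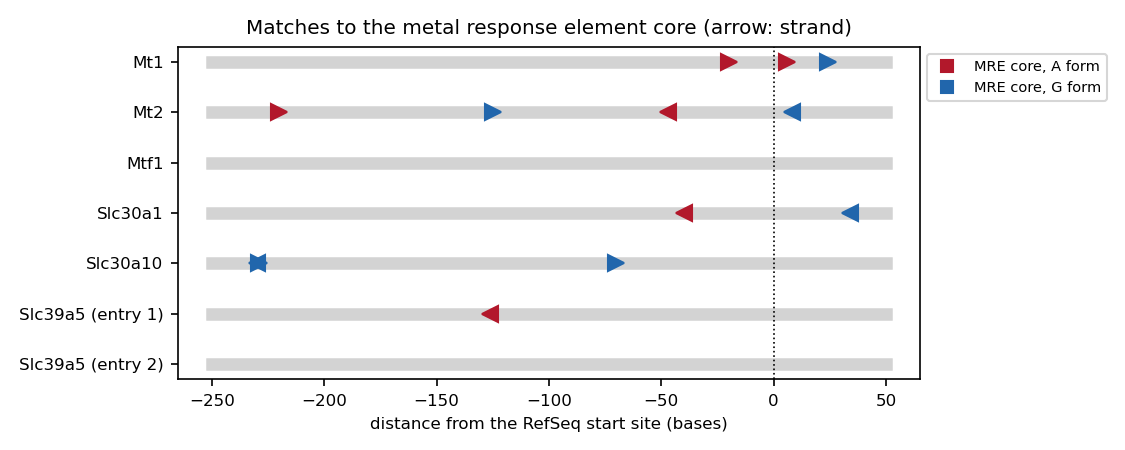
Matches to the metal response element core in the RefSeq start-site windows, from 250 bases before to 50 bases after each start site; arrows give the strand and colours the A and G forms of the core. Mt1 has 3 matches around a start site that lies inside its annotated gene, Mt2 has 4, and Mtf1 has 0.

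Mt3, a metallothionein known mainly from the nervous system and a neighbour of Mt1 and Mt2, moved in the opposite direction to Mt1 in untreated tissue. It read 7.63, 10.1 and 5.83 CPM in untreated TG and 1.82, 1.43 and 3.69 CPM in untreated WT (log2 fold change 1.77 ± 0.37, adjusted p = 0.0298). The Mt3 call was lost without WT untreated 1 (adjusted p = 0.121), WT untreated 2 (0.122) or TG untreated 2 (0.11), with the replicate block (0.0769) and in a fit of only the groups compared (0.0506). After DSS Mt3 read 7.91 and 11.1 CPM in TG and 4.02 and 2.43 CPM in WT. This difference, 1.56 in log2 units, did not pass by edgeR (adjusted p = 0.212). Its unadjusted p was under 0.05, and DESeq2 called it. Mt4, the metallothionein of stratified epithelia, was too low to be tested.

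Slc39a4 (ID 72027, chromosome 15, 76612383 to 76618506, minus strand) encodes the ZIP4 importer of the luminal membrane, the transporter that is defective in the human zinc deficiency acrodermatitis enteropathica. It read 375 and 382 CPM in TG DSS, 235 and 318 CPM in WT DSS, 366, 333 and 375 CPM in untreated TG, and 158, 172 and 165 CPM in untreated WT. Untreated WT was the lowest group, below every other library. In untreated tissue Slc39a4 rose 2.17-fold in TG (log2 1.12 ± 0.12, adjusted p = 0.00191). With DSS it rose 1.68-fold in WT (0.75 ± 0.13, adjusted p = 0.0048), and in TG the difference was 0.08 ± 0.13 (adjusted p = 0.801). TG libraries lay above WT libraries after DSS by 0.45 ± 0.14 (adjusted p = 0.275).

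The difference between the DSS changes of Slc39a4 was -0.67 ± 0.19 and did not pass (adjusted p = 0.159), although DESeq2 gave an adjusted p of 0.0434. Without WT DSS 1, the lower of the WT DSS libraries for this gene, it was -0.87 and passed (adjusted p = 0.0249). The untreated call and that in WT passed in every alternative fit, and without TG untreated 1 the untreated difference was 1.10. Pearson's r of log2 CPM with Slc39a4 over the 10 libraries was -0.75 for Mt1 and -0.67 for Mt2, a description that again rests on groups.

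Slc39a5 (ID 72002, chromosome 10, 128395927 to 128401276, minus strand) encodes ZIP5, the basolateral importer. It read 125 and 123 CPM in TG DSS, 114 and 68.4 CPM in WT DSS, 152, 120 and 123 CPM in untreated TG, and 150, 161 and 141 CPM in untreated WT. Both WT DSS libraries lay below the untreated WT ones, but they were far apart. With DSS in WT, Slc39a5 fell by 0.72 in log2 units (SE 0.20, adjusted p = 0.0284), while in TG its difference was -0.09 ± 0.19 (adjusted p = 0.855). The fall in WT is not firm: without WT DSS 2 it was -0.41 (adjusted p = 0.205), and it missed the threshold without WT untreated 1 (0.0648), WT untreated 2 (0.0776) or WT untreated 3 (0.0535). The difference between the DSS changes was 0.64 ± 0.27 (adjusted p = 0.389), and without WT DSS 1 it was 1.05 and passed (adjusted p = 0.0364). In untreated tissue the TG and WT libraries overlapped (-0.19 ± 0.17, adjusted p = 0.546), and after DSS they did not (0.44 ± 0.21, adjusted p = 0.474).

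Neither exporter passed in any comparison. Slc30a1 (ID 22782, chromosome 1, 191906697 to 191913248, plus strand), the ZnT1 exporter of the plasma membrane, read 51.5 and 47.9 CPM in TG DSS, 48.8 and 41.7 CPM in WT DSS, 44.5, 52.7 and 53.7 CPM in untreated TG, and 52.7, 47.1 and 49.5 CPM in untreated WT. Its highest library stood 1.29-fold above its lowest, the narrowest range of the 7 genes. The log2 differences were 0.01 ± 0.11 for TG over WT untreated, 0.14 ± 0.14 after DSS, -0.14 ± 0.13 for DSS in WT and -0.02 ± 0.13 for DSS in TG, with adjusted p of 0.49 or more. These differences near 0 changed sign in some alternative fits.

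Slc30a10 (ID 226781, chromosome 1, 185454848 to 185468762, plus strand) encodes ZnT10, which is known chiefly as a manganese exporter. It read 27.2 and 19.97 CPM in TG DSS, 36.3 and 20.1 CPM in WT DSS, 18.5, 41.2 and 24.2 CPM in untreated TG, and 28.9, 48.2 and 51.9 CPM in untreated WT. Libraries of 1 group differed as much as the groups did. Its largest difference was -0.62 ± 0.33, for TG over WT untreated (adjusted p = 0.314).

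Mtf1 (ID 17764, chromosome 4, 124802549 to 124849800, plus strand), the zinc-sensing factor itself, read 49.6 and 45.03 CPM in TG DSS, 45.1 and 38.0 CPM in WT DSS, 36.8, 30.6 and 40.2 CPM in untreated TG, and 41.6, 35.1 and 30.1 CPM in untreated WT. In untreated tissue Mtf1 differed between TG and WT by 0.01 ± 0.15 (adjusted p = 0.977). These are transcript levels, and the activity of MTF1 was not tested. With DSS in TG both libraries lay above the untreated ones (0.40 ± 0.16), which did not pass (adjusted p = 0.208).

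Counted over the 6 tested genes, 2 passed between untreated TG and WT, Slc39a4 higher and Mt1 lower, where 3.7% of all genes tested passed, 2.26% higher and 1.44% lower. After DSS 0 of the 6 passed between TG and WT by edgeR, with 1 at an unadjusted p under 0.05 and 0 by DESeq2, where 0.185% of all genes passed, 0.178% higher and 0.00711% lower. With DSS in WT 3 passed, 1 higher and 2 lower, against 19.8% of all genes, 10.2% higher and 9.62% lower. With DSS in TG 1 passed, and it was higher, against 5.48% of all genes, 3.33% higher and 2.15% lower. The interaction passed for 1 of 6, Mt1, against 0.846% of all genes, 0.526% with a larger log2 change in TG and 0.32% with a smaller one. Groups did not overlap for 2 of the 6 between untreated TG and WT (32% of all genes), 3 after DSS (43.2%), 3 with DSS in WT (57.4%) and 2 with DSS in TG (35.1%). The median log2 fold change of the 6 genes was -0.09, 0.30, -0.37, 0.03 and 0.27 in these 5 comparisons, and that of all genes lay between -0.02 and 0.01. Leaving out 1 library moved these medians: without WT DSS 2 they were 0.0987 after DSS, -0.14 with DSS in WT and 0.0357 in the interaction, and without WT DSS 1 they were -0.67 with DSS in WT and 0.57 in the interaction. Over all such fits the untreated median ranged from -0.19 to -0.0879, lowest without WT untreated 3, and that with DSS in TG from 0.0126 to 0.0916.

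Of 8 other SLC30 genes 6 were tested, and 0 passed in the 5 comparisons by edgeR, with 0 by DESeq2 and at most 1 at an unadjusted p under 0.05 in a comparison. Without TG untreated 1, 1 SLC30 gene passed with DSS in WT and 2 with DSS in TG. Of 12 other SLC39 genes 10 were tested. Between untreated TG and WT 1 passed, where 3.7% of all genes did. With DSS in WT 2 passed, which is near the share of all genes, 19.8%. In the other comparisons 0 of these SLC39 genes passed by edgeR and 0 by DESeq2. At an unadjusted p under 0.05 they numbered 4 in untreated tissue, 1 between TG and WT after DSS, 5 with DSS in WT, 4 with DSS in TG and 0 in the interaction, and DESeq2 called 1 in untreated tissue and 3 with DSS in WT. Slc39a11, a ZIP importer, rose in untreated TG, with 195, 177 and 162 CPM in TG and 124, 115 and 124 CPM in WT (log2 0.55 ± 0.11, adjusted p = 0.025). The Slc39a11 call was lost without any 1 of the untreated WT libraries or TG untreated 2, with adjusted p of 0.0765 to 0.123, and with the replicate block (0.0771). With DSS in WT, Slc39a6 and Slc39a14 fell. Slc39a6 read 2.42 and 2.16 CPM in WT DSS and 4.57, 6.19 and 3.999 CPM in untreated WT (-1.10 ± 0.26, adjusted p = 0.0159), and the call was lost without WT DSS 2 (adjusted p = 0.112) and with the replicate block (0.0503). Slc39a14, an importer of zinc, iron and manganese, fell by 0.39 (SE 0.11, adjusted p = 0.0315), which was lost in 7 of the 10 fits without a library and with the replicate block (0.078).

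**Figure D5:**
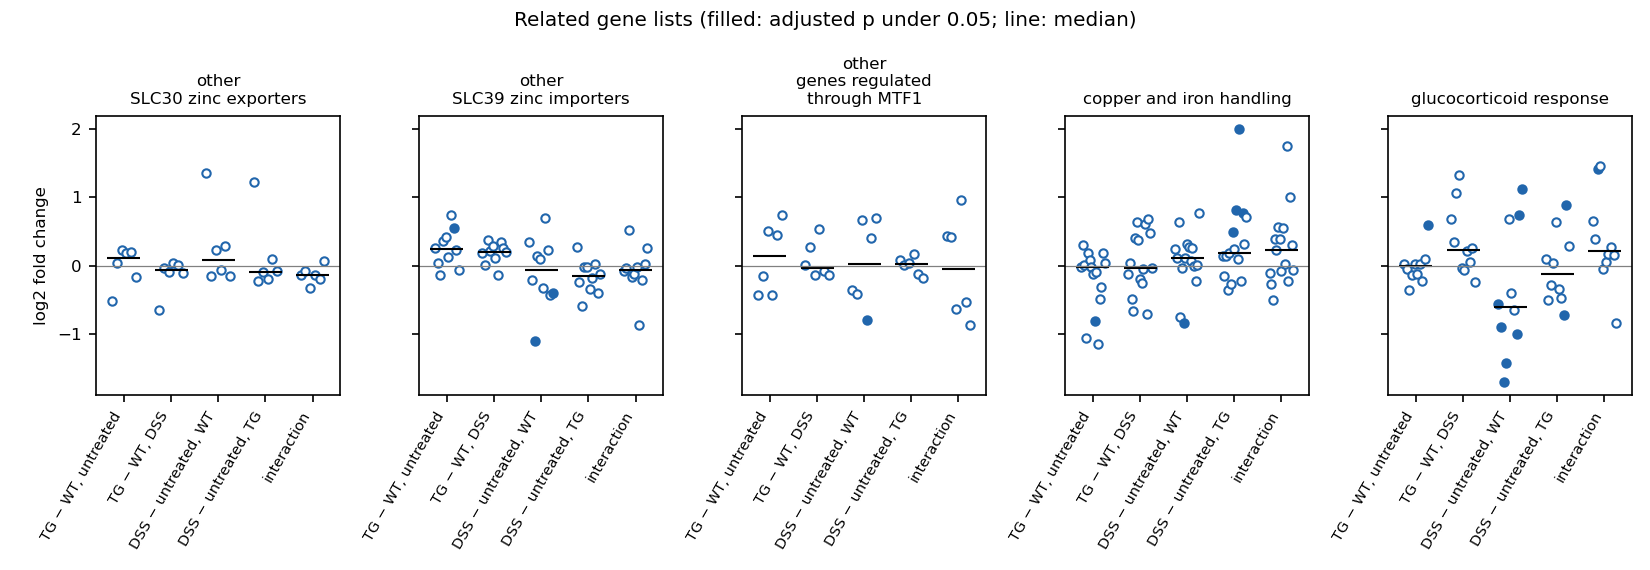
Log2 fold changes of 5 lists of related genes in the 5 comparisons, 1 point a gene, filled where adjusted p was under 0.05, with lines at list medians. The SLC30 list has 0 filled points, and the glucocorticoid response list has its most in the comparison of DSS with untreated WT, 2 higher and 5 lower.

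Of 7 other genes listed as regulated through MTF1, 6 were tested. In untreated TG, where 3.7% of all genes passed, 0 of these 6 passed by edgeR (4 at an unadjusted p under 0.05, 1 by DESeq2). That count was 1, a lower gene, under total count scaling, with only the groups compared and without WT DSS 1 or WT DSS 2, and 1 higher and 1 lower without TG untreated 1. With DSS in WT 1 passed, where 19.8% of all genes did. Ndrg1, a differentiation and stress gene, read 225 and 145 CPM in WT DSS and 335, 315 and 308 CPM in untreated WT (log2 -0.79 ± 0.17, adjusted p = 0.0115). The Ndrg1 call was lost without WT DSS 2. With DSS in TG and in the interaction, 0 passed by edgeR, with 0 and 2 at an unadjusted p under 0.05 and 0 and 1 by DESeq2. Slc39a10, a ZIP importer that MTF1 represses and that is also in the SLC39 list, read 8.76, 19.0 and 16.5 CPM in untreated TG and 9.15, 7.80 and 9.54 CPM in untreated WT, which did not pass (0.74 ± 0.29, adjusted p = 0.193).

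Among 15 genes of copper and iron handling, Slc40a1 encodes the iron exporter ferroportin. It read 266 and 273 CPM in TG DSS, 375 and 267 CPM in WT DSS, 136, 148 and 175 CPM in untreated TG, and 253, 299 and 247 CPM in untreated WT. Slc40a1 fell by 0.80 in untreated TG (SE 0.15, adjusted p = 0.0207) and rose by 0.81 ± 0.16 with DSS in TG (adjusted p = 0.0178), while with DSS in WT it differed by 0.27 ± 0.16 (adjusted p = 0.283). The first call was lost without any 1 of the untreated WT libraries or TG untreated 2 (adjusted p up to 0.0917), and the second without TG untreated 2 (0.0553), TG DSS 1 (0.1) or TG DSS 2 (0.141). With the replicate block both were lost (0.0625 and 0.0713). With DSS in TG, 4 genes of the list rose, where 3.33% of all genes tested were higher. They were Cybrd1, a duodenal ferric reductase, Slc40a1, Fth1, the ferritin heavy chain, and Sod1, the copper and zinc superoxide dismutase. Cybrd1 was low, with means of 2.11 CPM in TG DSS and 0.526 CPM in untreated TG. Its call was lost in 3 of 16 alternative fits, among them that of only the groups compared. Fth1 read 2188 and 2082 CPM in TG DSS and 1344, 1066 and 1331 CPM in untreated TG (log2 0.78 ± 0.16, adjusted p = 0.0212). The Fth1 call was lost without TG untreated 2 or 3 or TG DSS 1 or 2 (adjusted p up to 0.136) and with only the groups compared (0.0538). The count of 4 ranged from 0 to 4 over the fits without a library. Ccs, the copper chaperone of SOD1, fell with DSS in WT, to 35.6 and 34.3 CPM against 61.4, 64.2 and 60.5 CPM in untreated WT (-0.83 ± 0.13, adjusted p = 0.00265), and this call passed in every alternative fit.

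Glucocorticoids are the other classical inducers of metallothioneins, and 10 genes they induce were listed. With DSS in WT, 2 were higher and 5 lower, with a median log2 fold change of -0.60 against 0.00 for all genes, of which 10.2% were higher and 9.62% lower. Without a library the lower calls numbered 3 to 7 and the median was -0.99 without WT DSS 1 and -0.31 without WT DSS 2; DESeq2 called 2 higher and 6 lower. Per1, a clock gene, read 27.0 and 32.0 CPM in WT DSS and 110, 103 and 73.1 CPM in untreated WT (-1.69 ± 0.19, adjusted p = 0.00039). Sgk1, a kinase of sodium absorption, fell by 1.41 (SE 0.27, adjusted p = 0.00684), a call lost without WT DSS 2 (adjusted p = 0.0682). Nfkbia, the inhibitor of NF-kappa B, rose by 1.12 ± 0.14 (adjusted p = 0.001). With DSS in TG, 1 was higher and 1 lower, where 3.33% of all genes were higher and 2.15% lower. The higher gene was the stress gene Ddit4, at 0.89 ± 0.19 (adjusted p = 0.0216). The lower was the cell cycle inhibitor Cdkn1a, at -0.72 ± 0.18 (adjusted p = 0.0462). The Ddit4 call was lost in 4 and the Cdkn1a call in 7 of the 10 fits without a library, and both with the replicate block (0.0922 and 0.095); Ddit4 was also lost with only the groups compared (0.0653). Only Per1 passed the interaction (1.41 ± 0.25, adjusted p = 0.0351), where 0.846% of all genes passed. The Per1 call was lost in 8 of those 10 fits and with the replicate block (0.0799). In untreated TG, where 3.7% of all genes passed, Nfkbia alone passed, and it was higher (0.60 ± 0.13, adjusted p = 0.0366). The Nfkbia call was lost in 6 of the 10 fits without a library and under total count scaling (0.052). It was also lost with the replicate block (0.0806) and with only the groups compared (0.0589). Whether glucocorticoids bear on the metallothionein levels was not tested.

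By likeness of log2 CPM over the 10 libraries, 5 of 10585 genes compared stood closest to each metallothionein. Nearest Mt2 were Fxyd4, a regulator of the sodium pump (r = 0.95), Mpp1 (0.949), Bnip3 (0.947), Slc46a1, the folate transporter (0.945), and Cryz (0.93). Nearest Mt1 were Fxyd4 (0.959), Pbld2 (0.947), 2310007B03Rik (0.942), Als2cl (0.941) and Slc6a8, the creatine transporter (0.937). Mean Fxyd4 was 17.7 CPM in TG DSS, 13.5 CPM in WT DSS, 4.84 CPM in untreated TG and 26.1 CPM in untreated WT. That is the group order of both metallothioneins, which picking by likeness favours. The ranking is a description only, since the points share their groups.

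Cell type markers moved beside some of these results, and in RNA of mixed cells fewer cells of a type and less RNA per cell cannot be told apart. Summed levels of 10 colonocyte markers were 10364 to 12333 CPM in TG DSS, 5251 to 8109 CPM in WT DSS, 7099 to 10834 CPM in untreated TG and 11339 to 13721 CPM in untreated WT, with none at 0. Of these markers, 3 were lower in untreated TG, 1 was higher and 6 lower with DSS in WT, 4 were higher with DSS in TG and 3 passed the interaction. Of all genes tested, 2.26% were higher and 1.44% lower in untreated TG. With DSS, 10.2% were higher and 9.62% lower in WT, and 3.33% were higher and 2.15% lower in TG. The interaction passed for 0.846%. The same shares apply to the marker lists that follow. Summed levels of 8 goblet cell markers were 28384 to 39345 CPM in untreated TG and 9406 to 24157 CPM in untreated WT, with none at 0 and 3 higher in TG. After DSS they were 26717 to 33526 CPM in TG and 13646 to 21918 CPM in WT. Against untreated tissue, 2 markers passed as higher and 0 as lower in TG, and 1 and 0 in WT. The median log2 fold change of the 8 goblet cell markers with DSS was -0.31 in TG and 0.43 in WT. The 2 higher markers in TG thus do not stand for their list. For 8 Paneth cell markers, 1256 to 1368 CPM in untreated TG stood against 128 to 400 CPM in untreated WT, with Defa17 and Habp2 at 0 in every untreated TG library and 3 of 5 tested markers higher in TG. Most of that sum was Ang4, at a mean of 1215 CPM in untreated TG and 233 CPM in untreated WT, while Lyz1 averaged 1.62 CPM in untreated TG and 2.24 CPM in untreated WT. After DSS these sums were 26.5 to 49.9 CPM in TG and 17.6 to 19.0 CPM in WT, with 3 markers lower than in untreated tissue in each genotype. Of the fibroblast and smooth muscle markers, 9 of 10 were tested: 3 collagen genes, among them Col1a1 at a mean of 20.1 CPM in untreated TG and 5.81 CPM in untreated WT, were higher in untreated TG, 3 markers were lower with DSS in TG and 1 was lower with DSS in WT. Their sums were 40.0 CPM in both TG DSS libraries, 38.7 to 43.6 CPM in WT DSS, 55.3 to 152 CPM in untreated TG and 51.8 to 83.3 CPM in untreated WT, with Des at 0 in WT DSS. The smooth muscle genes were near 0, with group means of at most 0.996 CPM for Acta2, 0.554 CPM for Des and 0.221 CPM for Myh11. Group means of the epithelial gene Epcam were 1592 to 1909 CPM, so these libraries held little smooth muscle RNA. Of 12 small intestinal enterocyte markers 9 were tested, and 1 was higher and 4 lower with DSS in WT and 1 lower with DSS in TG. Their sums were 489.9 to 601 CPM in TG DSS, 372 to 548 CPM in WT DSS, 535 to 760 CPM in untreated TG and 739 to 795 CPM in untreated WT, with Apoa4 at 0 in untreated TG. The part of these cell types in the metallothionein and Slc39a4 differences was not tested. Leukocyte markers summed to 50.3 to 59.1 CPM in TG DSS, 55.5 to 82.2 CPM in WT DSS, 24.2 to 133 CPM in untreated TG and 85.5 to 151 CPM in untreated WT; of 10 markers 5 were higher and 1 lower with DSS in WT, 4 were higher with DSS in TG, and S100a8 was at 0 in untreated WT. Of the pancreatic acinar markers, 8 of 10 were at 0 in TG DSS libraries, and the level of the list, 59.1 to 216 CPM over all libraries, was nearly all Cela1.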

How the data were processed

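The data were poly-A RNA sequencing libraries (BGISEQ-500) of mouse intestine, grouped by genotype and treatment from their titles. Of tools, the submitters' processing notes list RSEM 1.2.12, Bowtie2 2.2.5 and HISAT2 2.0.4, and of genome builds mm10, without role or order. The authors deposited, per library, expected counts, FPKM values and gene lengths in bases, per the file headers. A gene not listed in a library was set to 0, and 25 missing or date-like symbols were looked up again by gene ID. Coordinates come from RefSeq (GRCm38.p6), in which 19399 of 19456 gene IDs had an entry, and strands and transcripts from GENCODE M21.

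After rounding of the expected counts, filterByExpr (minimum 10, total 15) left 14072 genes, and TMM set the library scale. All 10 libraries entered one edgeR 4.0.16 quasi-likelihood fit (R 4.3.3) with a mean for each of the 4 groups and 6 residual degrees of freedom, and genes passed at Benjamini-Hochberg adjusted p under 0.05. Each SE was taken as |log2 fold change| over the square root of F. Levels between genes were compared in FPKM. The test was checked on simulated counts. Same-group libraries differed by more than counting error (chi-square per gene 9.99 to 65.2).

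The members, lists and markers were chosen with earlier results of these data known. Named genes outside the members are up to 3 per list and comparison, the largest changes past the threshold among genes averaging 1 CPM or more, and the 5 genes (mean of at least 5 CPM) nearest Mt1 and Mt2 by Pearson's r. Mt3 and Slc39a10 values are also shown where they bear on a list, and Sod1 completes a count of 4. Alternatives were DESeq2 1.42.0, DESeq2 size factors, total count scaling, no low-count filter, a fit to the compared groups alone, a replicate block from the titles, and leaving out each library. Some genes are not reported here.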

Additional observations from a re-analysis of the deposited data

Results flagged for a closer look

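The DSS change of Mt1 differed between the genotypes by 2.07 on the log2 scale (TG minus WT), by the edgeR interaction test with Benjamini-Hochberg adjustment (adjusted p = 0.00545). DSS and sex cannot be told apart in this difference. Mt1 was higher after DSS in 2 of 2 TG libraries than in any untreated TG library, and lower in 2 of 2 WT libraries than in any untreated WT library. Of all genes tested, 35.1% did not overlap with DSS in TG and 57.4% did not with DSS in WT. For Mt2 the same difference was 3.34, with every TG DSS library above every untreated TG library and every WT DSS library below every untreated WT library. The Mt2 difference was not tested, since the gene group was picked for it.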

How the results depend on the processing

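The counts of passing genes among the 6 kept within 1.5 times of 2, 0, 3, 1 and 1 in the 5 comparisons except as follows. With DSS in WT the count ranged from 1 to 3 over the fits without a library, with DSS in TG from 0 to 1 and in the interaction from 1 to 3; the interaction count was 2 by DESeq2. The count of 1 came without WT DSS 2, the 0 without TG DSS 2 and the interaction count of 3 without WT DSS 1. Calls of Mt1 and Slc39a4 in untreated tissue ranged from -1.83 to -1.59 and from 1.04 to 1.14. Values near 0 changed sign. For TG over WT untreated, Mtf1 was -0.0726 under total count scaling, -0.00369 with no low-count filter and -0.12 to 0.11 without a library; Slc30a1 was -0.0648 under total count scaling and -0.0430 to 0.0956 without a library. For DSS in TG, Slc30a1 was 0.00347 with the replicate block and -0.0987 to 0.0331 without a library, Slc30a10 -0.48 to 0.15 and Slc39a5 -0.15 to 0.0281. For Slc30a10, TG over WT after DSS was -0.62 to 0.23 and the interaction -0.000443 to 0.85. The cause was not tested. A lone sample left by such a fit is assumed to vary like the other groups.

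Same-numbered libraries did not deviate together in every pair: correlations were 0.083, -0.013 and -0.19 between untreated TG and WT, 0.21 between TG and WT after DSS, and -0.29 and -0.22 between DSS and untreated TG, so the numbers were not taken as pairs. With the replicate block the counts among the 6 genes were again 2, 0, 3, 1 and 1, and those over all genes 166, 7, 1614, 356 and 41 against 520, 26, 2788, 771 and 119. Without a library they ranged over 58 to 730, 4 to 145, 970 to 4112, 173 to 1677 and 24 to 424. DESeq2 called 1041, 258, 1244 and 430 genes in all but the comparison of DSS in WT. Fits of only the groups compared called 8 after DSS and 395 with DSS in TG. Total count scaling called 7 after DSS and split untreated TG against WT 235 higher and 382 lower, not 318 and 202, DSS in WT 1146 and 1700, not 1434 and 1354, and DSS in TG 413 and 402, not 468 and 303.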
